A study of Homo sapiens with 6 samples.

Results

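Heat shock proteins and J-domain proteins are the molecular chaperones that fold new proteins, refold damaged ones and hand those beyond repair to degradation. The genes described here are those whose symbols carry the DNAJA, DNAJB or DNAJC stem, HSPA followed by a number (leaving out HSPA5) or HSPB followed by a number, together with HSPH1, HSPD1, HSPE1, HSP90AA1, HSP90AB1, HSF1 and HSF2. This rule found 71 of the 18030 genes in the files. They were 2 cytosolic HSP90 genes, 11 HSP70 genes, 3 HSP110 genes, the 2 mitochondrial chaperonin genes, 7 small heat shock protein genes, 44 J-domain genes (4 of class A, 12 of class B and 28 of class C) and 2 heat shock factor genes. DNAJB8 and DNAJC5B also match the rule and were not analysed here.

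The study sequenced mRNA of Huh-7, a line from a human hepatocellular carcinoma, in 3 libraries of cells overexpressing ALKBH5 (oeALKBH5) and 3 control libraries. ALKBH5 is an enzyme that erases N6-methyladenosine marks from RNA, and the question the design poses is how its overexpression alters gene expression. Cells grew in serum-containing medium at a normal culture temperature and were labelled untreated in both groups, so no heat shock was applied. By the labels' protocols, ALKBH5 plasmid entered the cells by electroporation (Neon system, 3 pulses of 20 ms at 1250 V) and RNA was extracted after 60 h. The controls bear the genotype label WT and are called parental in the design text, but their protocol field repeats the plasmid text, so whether they were electroporated, or received an empty plasmid, cannot be told from the labels. The promoter on the plasmid is not given in the sources used here. Libraries are numbered as biological replicates without a word on separate cultures or transfections, so the p-values below measure only the variation among these 6 samples, and that variation may be technical.

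HSP70 proteins bind short hydrophobic stretches of client proteins in a cycle driven by ATP. J-domain proteins bring the clients and switch on the ATPase, while HSP110 proteins and other exchange factors release the nucleotide. HSP90 takes over partly folded clients such as kinases and steroid receptors, and the HSPD1-HSPE1 chaperonin encloses proteins inside mitochondria. HSF1 is the main transcription factor of the heat shock response; it is held inactive by chaperones and, under stress, binds heat shock elements in front of chaperone genes. Liver cells secrete large amounts of protein and depend on these systems in the cytosol, the endoplasmic reticulum (ER) and mitochondria alike.

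The promoters of 8 members are shown because these genes carry the contrast described below: the stress-inducible HSPA1A, HSPA1B and HSPA6, the abundant HSPA8, HSP90AA1 and HSP90AB1, the mitochondrial HSPA9, and HSPA2. Each is the stretch of 180 bases before a RefSeq start on GRCh38.p14, 5′ to 3′ on the gene's strand; for HSP90AA1 and HSP90AB1, which have several starts in the promoter table, it is the start with the most matches. The windows of HSPA8, HSPA2, HSP90AA1 and HSP90AB1 lie inside the gene's full annotated span, so part of the annotated gene lies further upstream. Capitals mark every match to GAANNTTC or TTCNNGAA, the pair of facing GAA units at the heart of a heat shock element; each form reads the same on both strands, and overlapping matches run together.
HSPA1A, chr6:31815363-31815542, plus strand: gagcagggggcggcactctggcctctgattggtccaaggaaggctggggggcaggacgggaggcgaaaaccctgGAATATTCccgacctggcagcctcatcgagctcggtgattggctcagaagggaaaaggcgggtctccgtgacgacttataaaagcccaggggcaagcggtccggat
HSPA1B, chr6:31827558-31827737, plus strand: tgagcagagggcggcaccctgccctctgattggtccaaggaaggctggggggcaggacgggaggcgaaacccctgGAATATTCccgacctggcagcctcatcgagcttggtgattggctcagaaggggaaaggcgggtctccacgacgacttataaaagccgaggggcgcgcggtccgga
HSPA6, chr1:161524360-161524539, plus strand: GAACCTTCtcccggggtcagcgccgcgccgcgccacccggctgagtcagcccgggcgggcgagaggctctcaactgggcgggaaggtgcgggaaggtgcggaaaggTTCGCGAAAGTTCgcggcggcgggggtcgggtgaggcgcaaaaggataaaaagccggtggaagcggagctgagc
HSPA8, chr11:123062137-123062316, minus strand: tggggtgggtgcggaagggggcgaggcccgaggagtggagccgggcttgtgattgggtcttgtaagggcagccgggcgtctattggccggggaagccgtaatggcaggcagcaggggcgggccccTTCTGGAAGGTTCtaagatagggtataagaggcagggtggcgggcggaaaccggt
HSP90AA1, chr14:102087045-102087224, minus strand: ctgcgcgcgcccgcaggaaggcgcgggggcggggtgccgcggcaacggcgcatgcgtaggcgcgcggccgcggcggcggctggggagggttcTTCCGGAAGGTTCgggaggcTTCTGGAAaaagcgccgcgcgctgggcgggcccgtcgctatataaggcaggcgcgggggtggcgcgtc
HSP90AB1, chr6:44247763-44247942, plus strand: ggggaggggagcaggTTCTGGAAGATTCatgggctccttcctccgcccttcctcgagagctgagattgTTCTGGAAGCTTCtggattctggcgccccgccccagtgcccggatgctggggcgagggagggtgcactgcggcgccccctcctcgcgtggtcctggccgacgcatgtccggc
HSPA9, chr5:138575402-138575581, minus strand: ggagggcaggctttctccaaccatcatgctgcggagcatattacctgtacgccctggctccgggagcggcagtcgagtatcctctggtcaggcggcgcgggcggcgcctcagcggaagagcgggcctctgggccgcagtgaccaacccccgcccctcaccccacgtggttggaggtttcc
HSPA2, chr14:64540561-64540740, plus strand: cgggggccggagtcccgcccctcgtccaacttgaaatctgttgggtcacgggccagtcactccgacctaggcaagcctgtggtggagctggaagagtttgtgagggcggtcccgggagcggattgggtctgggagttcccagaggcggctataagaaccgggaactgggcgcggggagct
HSPA6, HSPA8, HSP90AA1 and HSP90AB1 show runs in which 3 units follow each other, HSPA1A and HSPA1B show a single pair, and HSPA9 and HSPA2 show none in these windows. A longer search covered the 250 bases before the start for 3 units in a row (GAANNTTCNNGAA, or TTCNNGAANNTTC on the other strand, each holding a pair match). Of 63 members with a promoter in the table, 6 held such a run before any listed start (9.52%), against 51 of 11484 genes tested (0.444%). These 63 are not the 63 members tested below. They include untested members such as DNAJB7 and HSPB3 and lack tested ones such as HSF1 and HSPA14. A pair, within a run or not, was present in 20 of the same 63 members (31.7%), DNAJB7 and HSPB3 among them. It was present in 1405 of 11484 genes tested (12.2%). These are letter matches and show no binding. The 6 members with a run were DNAJB6, HSP90AA1, HSP90AB1, HSPA8, HSPD1 and HSPA6. All but HSPA6 were called lower in oeALKBH5 by the test described below, but only HSP90AA1 and HSP90AB1 with library sizes left unscaled. Of the 45 genes with a run outside the members, 11 were called lower (24.4%) and 7 higher (15.6%), against 22.0% and 20.8% of all genes tested.

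Estimated counts per library totalled 18708513, 18607084 and 18826479 in oeALKBH5, against 19265686, 19348109 and 19378030 in control libraries. ALKBH5 itself measured 169, 133 and 110 CPM (counts-per-million on TMM-scaled library sizes) in oeALKBH5, against 70.5, 74.2 and 75.5 CPM in control libraries. Its log2 fold change was 0.90 (SE 0.177, adjusted p = 0.0154, edgeR), with the 3 oeALKBH5 libraries spread more widely than the controls and replicate 1 highest. That adjusted p was 0.0529 without control replicate 2 and 0.0589 without control replicate 3. All 8 hepatocyte and hepatoma markers were abundant, with summed levels of 19553 to 21081 CPM in oeALKBH5 and 29882 to 30393 CPM in control libraries, and all 8 were called lower. Markers of other liver cells summed to far less than the hepatocyte markers, although CD68 and SOX9 were well expressed. The 4 macrophage markers summed to 133 to 157 CPM in oeALKBH5 and 141 to 145 CPM in control libraries, nearly all of it CD68, while CD163 was at or near 0. The 3 endothelial markers summed to 11.3 to 11.9 CPM in oeALKBH5 and 17.3 to 21.0 CPM in control libraries. Nearly all of it was PECAM1, which was called lower, while VWF and CDH5 were too scarce to test. The 4 stellate markers summed to 13.9 to 14.8 CPM in oeALKBH5 and 15.4 to 17.2 CPM in control libraries. The 3 cholangiocyte markers summed to 110 to 130 CPM in oeALKBH5 and 97.2 to 101 CPM in control libraries, most of it SOX9, which was called higher (log2 fold change 0.30, adjusted p = 0.000548). In bulk RNA, fewer cells of a type and less RNA per cell cannot be told apart, and the part of the hepatocyte marker difference in the results below was not tested.

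The chaperone genes as a group took a slightly smaller share of all counts in oeALKBH5 cells, with 0.884%, 0.895% and 0.916% in the oeALKBH5 libraries, against 0.927%, 0.956% and 0.954% in the control libraries. The groups do not overlap in that share. On the CPM scale the members summed to 8746 ± 221 in oeALKBH5 and 9723 ± 111 in control cells (SD, n = 3 each). Without HSPA8, HSP90AA1 and HSP90AB1, the other 68 members summed to 4737 ± 98.1 CPM in oeALKBH5 and 5018 ± 30.6 CPM in control cells. On the FPKM scale (fragments scaled for transcript length and library depth) the same 68 members summed to 2358 ± 44.3 in oeALKBH5 and 2388 ± 21.6 in control cells, with overlapping libraries. HSPA8, HSP90AA1 and HSP90AB1 alone summed to 4009 ± 134 CPM in oeALKBH5 and 4705 ± 89.9 CPM in control cells.

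Of the 71 members, 63 had enough counts to test. A gene was called at a Benjamini-Hochberg adjusted p under 0.05 in edgeR's quasi-likelihood test, adjusted over all 14168 genes tested. Across those genes 42.8% were called, 20.8% higher and 22.0% lower in oeALKBH5, and among the members 25 were called (39.7%), 6 higher (9.52%) and 19 lower (30.2%). The median log2 fold change was -0.06 over the members tested and 0.01 over all genes. Scaling by library size alone, without the TMM step, called 10 members higher and 8 lower, against 30.1% and 14.4% of all genes, and moved the same medians to 0.02 and 0.09. Libraries of the 2 groups did not overlap for 9 members higher and 19 lower in oeALKBH5, against 25.8% and 27.0% of all genes tested (52.8% in either direction). Changes were small: no called member reached an absolute log2 fold change of 1, and the smallest called change was 0.13.

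**Figure D1:**
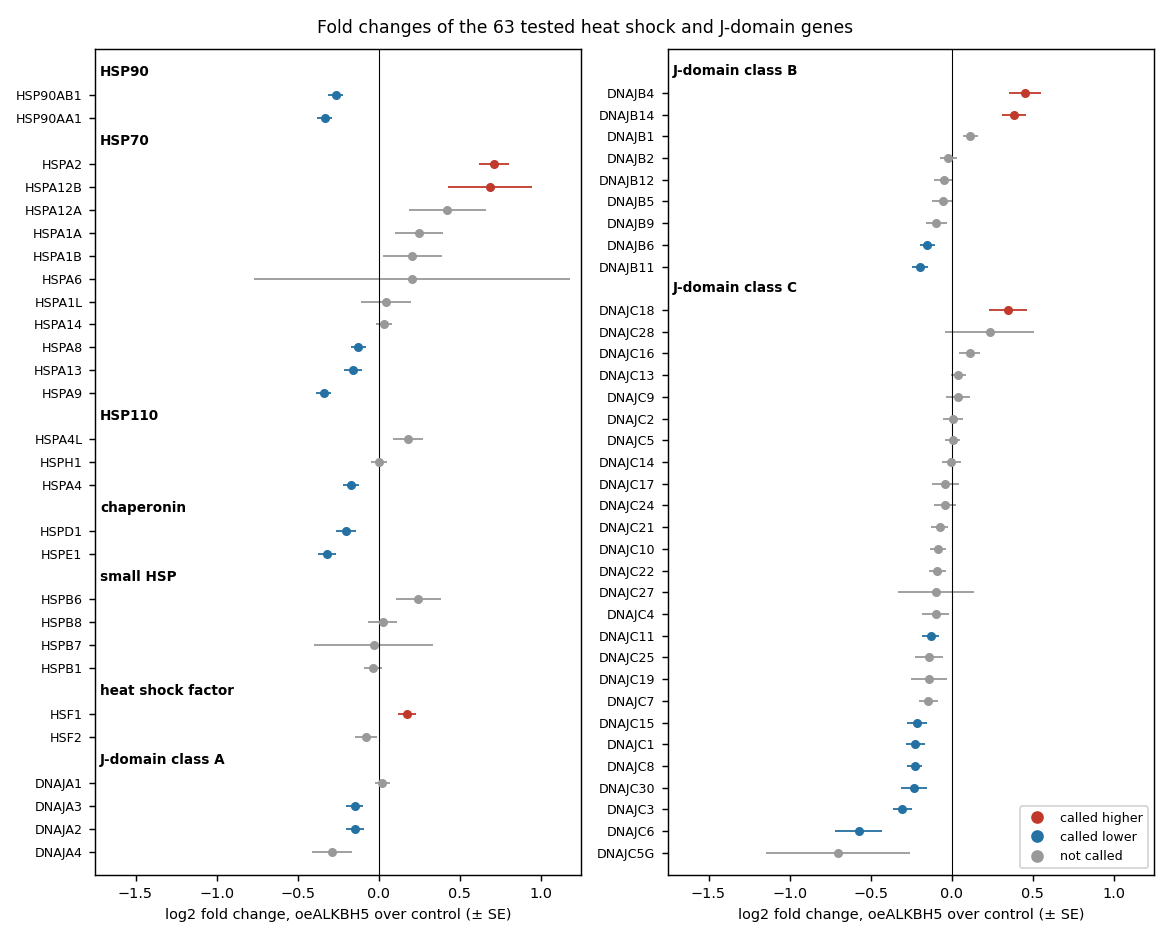
Log2 fold change of each of the 63 tested members in oeALKBH5 over control cells (x axis), with bars of 1 SE; members are grouped down the page by family and coloured by call. The 6 members called higher and the 19 called lower all lie within 1 log2 unit of 0, and HSPA6 has by far the widest error bar.

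The major cytosolic chaperones HSP90AA1 and HSP90AB1 fell in oeALKBH5 cells. HSP90AA1, the stress-inducible HSP90 isoform, measured 1098, 1187 and 1184 CPM in oeALKBH5, against 1386, 1511 and 1473 CPM in control libraries. Every oeALKBH5 library lay below every control library, with a log2 fold change of -0.33 (SE 0.0474, adjusted p = 1.36e-05). HSP90AB1, the constitutive isoform, measured 1229, 1169 and 1308 CPM in oeALKBH5, against 1453, 1490 and 1508 CPM in control libraries. It fell by 0.26 on the log2 scale (SE 0.0469, adjusted p = 0.000146), again without overlap. Per length, HSP90AB1 had rank 2 and HSP90AA1 rank 4 among the members, at 506 ± 24.2 and 374 ± 16.3 FPKM in oeALKBH5 cells and at 576 ± 13.6 and 446 ± 22.4 FPKM in control cells (SD, n = 3).

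HSPA8, the constitutive cytosolic HSP70 also known as HSC70, was the most highly expressed member per length, at 750 ± 22.0 FPKM in oeALKBH5 and 775 ± 19.2 FPKM in control cells (SD, n = 3 each), which is 18.7% of the members' summed FPKM. It measured 1561, 1630 and 1662 CPM in oeALKBH5, against 1772, 1711 and 1810 CPM in control libraries, and fell by 0.13 on the log2 scale (SE 0.0443, adjusted p = 0.0276). This small fall was the least firm of those among abundant members: the adjusted p was 0.0588 without oeALKBH5 replicate 1, 0.0599 without oeALKBH5 replicate 2, 0.0792 without control replicate 1 and 0.15 without control replicate 3, and 0.365 with scaling by library size alone.

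The stress-inducible HSP70 genes HSPA1A, HSPA1B and HSPA6, which cells switch on strongly after heat, were not called. HSPA1A measured 288, 206 and 214 CPM in oeALKBH5, against 206, 195 and 195 CPM in control libraries. HSPA1B measured 137, 95.5 and 91.4 CPM in oeALKBH5, against 94.4, 94.7 and 91.9 CPM in control libraries. Both were high in a single library, oeALKBH5 replicate 1, and overlapped with or lay close to the controls in the other two. HSPA1A and HSPA1B are near-identical copies whose reads the estimation divides, so their sum is the safer value. It was 425.4, 301.2 and 305.5 CPM in oeALKBH5, against 300.6, 289.9 and 287.2 CPM in control libraries. On the FPKM scale the sum was 183.2, 130.7 and 130.4 in oeALKBH5, against 121.7, 118.9 and 117.0 in control libraries. Every oeALKBH5 library thus lay above every control in the sum, by very little for replicate 2 on the CPM scale. The log2 fold changes were 0.25 for HSPA1A (SE 0.147, adjusted p = 0.247) and 0.21 for HSPA1B (SE 0.182, adjusted p = 0.43). Without oeALKBH5 replicate 1 they were 0.08 (adjusted p = 0.147) and -0.0013 (adjusted p = 0.986). HSPA1A was called higher under 3 of the 17 alternatives. These were the test of log2(FPKM + 1), with an adjusted p of 0.0289, log2(FPKM + 0.1), and replicate number added as a block.

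HSPA6, the most strictly inducible human HSP70, showed the same library apart from the rest at a much lower level. It measured 7.17, 1.505 and 0.522 CPM in oeALKBH5, against 2.79, 2.27 and 2.92 CPM in control libraries. Replicate 1 lay above and replicates 2 and 3 lay below all controls, so the log2 fold change of 0.21 has an SE of 0.976 (adjusted p = 0.89). Without replicate 1 the gene was called lower, with a log2 fold change of -1.38 (adjusted p = 8.05e-05). Of the 63 members tested, 7 were at least 25% higher in oeALKBH5 replicate 1 than in the mean of replicates 2 and 3, against 908 of the 14168 genes tested (6.41%). The 7 were HSPA6 at 7.08 times, DNAJC5G at 2.44, DNAJC27 at 1.87, HSPA1B at 1.47, HSPA1A at 1.37, HSPB8 at 1.29 and HSPA2 at 1.28. ALKBH5 was also highest in this library; the part of the plasmid gene's level in these values was not tested.

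**Figure D2:**
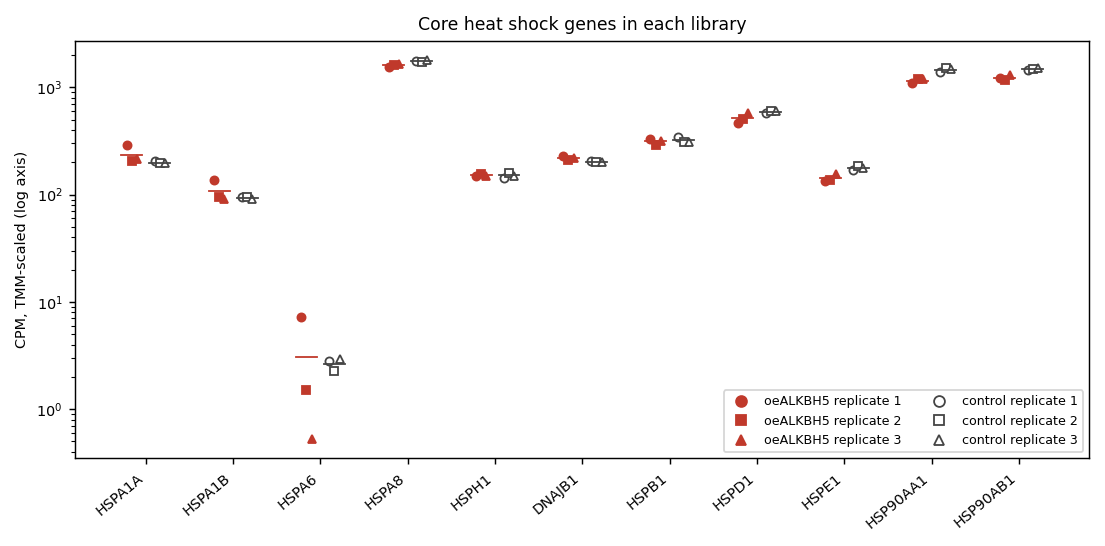
Level of 11 core heat shock genes, some of them constitutive (HSPA8 and HSP90AB1), in each library (y axis, CPM on a log axis), oeALKBH5 left of control for each gene. HSP90AA1, HSP90AB1, HSPA8, HSPD1 and HSPE1 lie lower in all 3 oeALKBH5 libraries, whereas HSPA1A, HSPA1B and HSPA6 have 1 oeALKBH5 point well above the rest.

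HSPA2 and HSPA12B were the HSP70 genes that rose. HSPA2, best known for its role in male germ cells, measured 36.3, 28.6 and 28.0 CPM in oeALKBH5, against 19.6, 17.8 and 19.3 CPM in control libraries. The gene rose 1.64-fold, with a log2 fold change of 0.71 (SE 0.0923, adjusted p = 1.29e-05), the largest rise among called members, and 0.58 on the log2 scale without oeALKBH5 replicate 1. HSPA12B, a divergent HSP70 relative studied mainly in endothelial cells, was scarce, at 1.61, 1.66 and 1.62 CPM in oeALKBH5, against 0.698, 1.27 and 1.06 CPM in control libraries. Its log2 fold change was 0.69 (SE 0.256, adjusted p = 0.0361). The HSPA12B call held only without control replicate 2: leaving out any other single library gave an adjusted p of 0.0522 to 0.172, highest without control replicate 1. The sum of endothelial markers given above rests nearly wholly on PECAM1, and its relation to HSPA12B was not tested.

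Of the 11 HSP70 genes tested, 2 were called higher and 3 lower, and of the 3 HSP110 genes 1 was called lower. Over all genes tested, 20.8% were called higher and 22.0% lower. Besides HSPA8 above and HSPA9 below, the genes called lower were HSPA4 and HSPA13. HSPA4, an HSP110 exchange factor, averaged 198 ± 11.8 CPM in oeALKBH5 and 223 ± 3.85 CPM in control cells (SD, n = 3 each), and fell by 0.17 on the log2 scale (SE 0.0488, adjusted p = 0.00789). HSPA13, an ER-linked HSP70, averaged 46.2 ± 1.66 CPM in oeALKBH5 and 51.6 ± 1.36 CPM in control cells, a log2 fold change of -0.16 (SE 0.0551, adjusted p = 0.0247). HSPA13 missed the threshold without control replicate 2, control replicate 3 or oeALKBH5 replicate 2, with adjusted p of 0.0859, 0.101 and 0.0883. HSPH1, the heat-inducible HSP110, measured 150, 155 and 149 CPM in oeALKBH5, against 144, 160 and 148 CPM in control libraries, and the groups overlap (log2 fold change 0.00, SE 0.0491, adjusted p = 0.953). HSPA4L had a log2 fold change of 0.18 (SE 0.0913, adjusted p = 0.119) and HSPA14, which works at the ribosome, of 0.03 (SE 0.0505, adjusted p = 0.631).

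Most of the listed mitochondrial chaperones fell in oeALKBH5 cells. Of 9 members listed by hand as acting in mitochondria, 7 were called lower and none higher. Their median log2 fold change was -0.20, with a range of -0.34 to -0.10. The list may not hold every such member, and the range is that of the list. Over all genes tested, 22.0% were called lower and 20.8% higher. With scaling by library size alone, 2 of the 9 were called lower (HSPA9 and HSPE1), none higher, and the median was -0.12. That scaling called 14.4% of all genes lower and 30.1% higher. HSPA9, the mitochondrial HSP70 or mortalin, measured 397, 417 and 431 CPM in oeALKBH5, against 513, 535 and 527 CPM in control libraries. It fell by 0.34 on the log2 scale (SE 0.0453, adjusted p = 6.22e-06), the smallest adjusted p among the members.

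The 2 chaperonin genes were both called lower. HSPE1, the lid of the chaperonin, measured 133, 138 and 154 CPM in oeALKBH5, against 170, 184 and 176 CPM in control libraries, a log2 fold change of -0.32 (SE 0.0543, adjusted p = 9.21e-05). HSPD1, the barrel, measured 463, 512 and 574 CPM in oeALKBH5, against 579, 602 and 600 CPM in control libraries, a log2 fold change of -0.20 (SE 0.0614, adjusted p = 0.0155). For HSPD1 the highest oeALKBH5 library came within a few CPM of the lowest control library, and the adjusted p was 0.055 without control replicate 2 and 0.0615 without oeALKBH5 replicate 2. Per length, HSPE1 stood at 286 ± 20.3 FPKM in oeALKBH5 and 338 ± 15.6 FPKM in control cells (SD, n = 3 each).

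Of the J-domain partners in mitochondria, 4 were called lower. DNAJC15, tied to the import motor of the inner membrane, measured 28.2, 27.5 and 29.1 CPM in oeALKBH5, against 33.2, 32.8 and 32.3 CPM in control libraries (log2 fold change -0.21, SE 0.0617, adjusted p = 0.00878). DNAJC30, which takes part in the upkeep of respiratory complex I, measured 16.01, 14.5 and 15.9 CPM in oeALKBH5, against 18.9, 18.3 and 17.4 CPM in control libraries (log2 fold change -0.23, SE 0.0786, adjusted p = 0.0215). Groups do not overlap in either gene. DNAJA3, the main matrix partner of HSPA9, had a log2 fold change of -0.15 (SE 0.0525, adjusted p = 0.0284), and DNAJC11, a protein of the outer membrane and cristae complexes, of -0.13 (SE 0.0513, adjusted p = 0.046). These last 3 calls depended on single libraries. DNAJC30 missed the threshold without control replicate 1, control replicate 2 or oeALKBH5 replicate 2 (adjusted p 0.0855, 0.0623 and 0.11). DNAJA3 missed it without control replicate 1, control replicate 3 or oeALKBH5 replicate 2 (adjusted p 0.0765, 0.122 and 0.159), and DNAJC11 without any 1 of the controls or without oeALKBH5 replicate 2 (adjusted p 0.0582 to 0.228). The import motor member DNAJC19 had a log2 fold change of -0.14 (adjusted p = 0.323) and DNAJC4 of -0.10 (adjusted p = 0.356); neither was called.

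The 10 members of the ER split, with 4 called lower, 2 higher and 4 not called, or 2 lower and 3 higher with scaling by library size alone. Over all genes tested, 22.0% were called lower and 20.8% higher, or 14.4% and 30.1% with that scaling. DNAJC3, which protects translation and folding under ER stress, measured 40.8, 40.7 and 37.8 CPM in oeALKBH5, against 47.7, 49.4 and 50.3 CPM in control libraries (log2 fold change -0.30, SE 0.0572, adjusted p = 0.000252). DNAJB11, a lumenal partner of the ER HSP70, measured 110, 119 and 121 CPM in oeALKBH5, against 130, 134 and 138 CPM in control libraries (log2 fold change -0.20, SE 0.0492, adjusted p = 0.00296). DNAJC1, another ER J-domain protein, measured 34.7, 34.7 and 37.7 CPM in oeALKBH5, against 41.7, 41.5 and 41.9 CPM in control libraries (log2 fold change -0.22, SE 0.0589, adjusted p = 0.0044). These 3 and HSPA13 were the ER members called lower. DNAJB9, an ER stress gene, had a log2 fold change of -0.10 (SE 0.0638, adjusted p = 0.242) and was not called.

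The ER members called higher both belong to the membrane-anchored kind that faces the cytosol. DNAJB14 measured 25.6, 26.7 and 25.3 CPM in oeALKBH5, against 19.4, 21.3 and 18.7 CPM in control libraries, a 1.31-fold rise, or 0.38 on the log2 scale (SE 0.0719, adjusted p = 0.000246). DNAJC18 measured 10.2, 7.58 and 9.08 CPM in oeALKBH5, against 6.82, 7.34 and 6.95 CPM in control libraries, with a log2 fold change of 0.35 (SE 0.118, adjusted p = 0.0216). The DNAJB14 groups are well apart, while the lowest oeALKBH5 library of DNAJC18 sits just above the highest control. DNAJC18 missed the threshold without oeALKBH5 replicate 1 (adjusted p = 0.107), control replicate 1 (0.0816) or control replicate 3 (0.063). DNAJB12, the close relative of DNAJB14, was not called (adjusted p = 0.514).

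**Figure D3:**
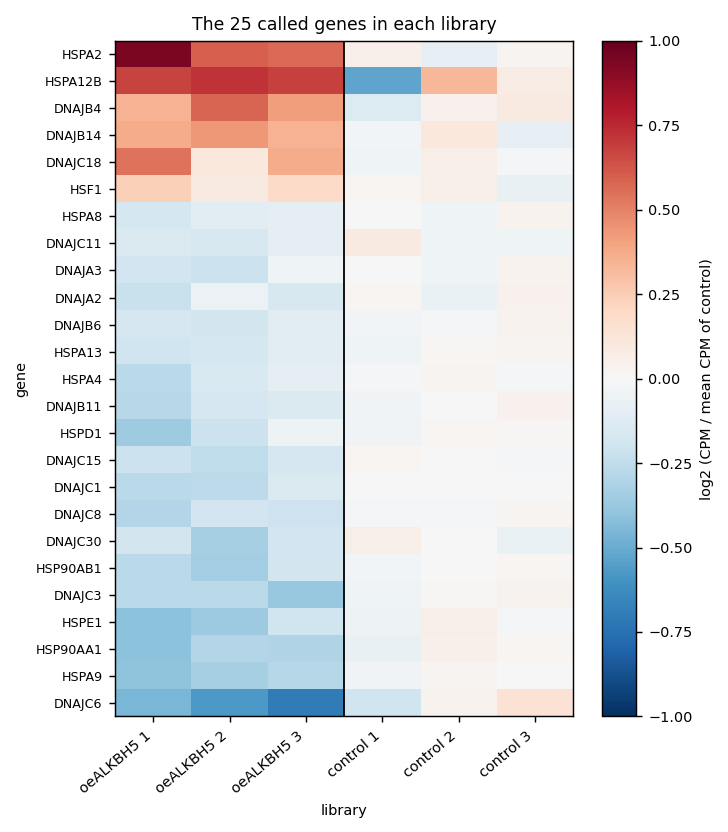
Heat map of the 25 called members, with oeALKBH5 libraries left of control libraries and colour giving the log2 ratio of each library's CPM to the control mean. The 6 members called higher and 19 called lower form separate blocks, and HSPA2 is highest in oeALKBH5 replicate 1.

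The J-domain genes as a whole had 3 called higher, 11 called lower and 25 not called among the 39 tested. Over all genes tested, 20.8% were called higher and 22.0% lower. Class A holds the general partners of cytosolic HSP70. DNAJA1, the most abundant J-domain member per length, measured 287, 307 and 314 CPM in oeALKBH5, against 293, 300 and 301 CPM in control libraries, with overlapping groups (log2 fold change 0.02, SE 0.0463, adjusted p = 0.736). DNAJA2 had a log2 fold change of -0.15 (SE 0.056, adjusted p = 0.0383) although its groups overlap, and its adjusted p was 0.0613 to 0.155 without any 1 of control replicates 1 and 3 and oeALKBH5 replicates 1 and 3. DNAJA4 was not called (log2 fold change -0.29, SE 0.123, adjusted p = 0.0642).

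DNAJB1, the class B partner that rises with HSPA1A after heat, measured 229, 209 and 221 CPM in oeALKBH5, against 206, 203 and 200 CPM in control libraries. All 3 oeALKBH5 libraries were above all controls, but the adjusted p was 0.0532 (log2 fold change 0.11, SE 0.0467). DNAJB4, a close relative of DNAJB1, measured 11.8, 13.9 and 12.4 CPM in oeALKBH5, against 8.44, 9.56 and 9.87 CPM in control libraries. The rise was 1.37-fold, or 0.45 on the log2 scale (SE 0.0993, adjusted p = 0.00106). DNAJB6, which keeps aggregation-prone proteins soluble, averaged 117 ± 3.52 CPM in oeALKBH5 and 129 ± 2.55 CPM in control cells (SD, n = 3 each) and fell by 0.15 on the log2 scale (SE 0.0465, adjusted p = 0.0127). Without control replicate 3 or oeALKBH5 replicate 2 the adjusted p of DNAJB6 was 0.0749 and 0.0736.

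Class C members have specialised posts. Of the 26 tested, 7 were called lower and 1 higher, against 22.0% and 20.8% of all genes tested. DNAJC6, or auxilin, which helps HSP70 strip clathrin from vesicles, showed the largest fall among called members. It measured 3.95, 3.63 and 3.34 CPM in oeALKBH5, against 4.73, 5.54 and 5.998 CPM in control libraries, lower by a factor of 1.49, and its log2 fold change was -0.57 (SE 0.144, adjusted p = 0.00309). DNAJC8, associated with the spliceosome, measured 122, 131 and 130 CPM in oeALKBH5, against 149, 148 and 153 CPM in control libraries (log2 fold change -0.23, SE 0.0468, adjusted p = 0.000589). Neither gene's groups overlap. Among class C members not called were DNAJC5, a synaptic and secretory vesicle protein (log2 fold change 0.01), DNAJC13, an endosomal protein (0.04), DNAJC2 of the ribosome-associated complex (0.01) and DNAJC9, a histone chaperone (0.04).

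The heat shock factors were modestly expressed. HSF1 measured 76.6, 69.0 and 74.0 CPM in oeALKBH5, against 65.8, 67.5 and 61.5 CPM in control libraries, and was called higher with a log2 fold change of 0.17 (SE 0.0556, adjusted p = 0.0164). The lowest oeALKBH5 library lay just above the highest control, and without control replicate 3 the adjusted p was 0.12. HSF2 averaged 27.0 ± 0.828 CPM in oeALKBH5 and 28.5 ± 1.98 CPM in control cells (SD, n = 3 each) and was not called (log2 fold change -0.08, SE 0.0685, adjusted p = 0.372). HSF1 is held back after translation, so its mRNA level is no measure of its activity.

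Small heat shock proteins bind unfolding proteins without ATP, and none of the 4 tested was called. HSPB1, or HSP27, was the third most highly expressed member per length, at 442 ± 27.0 FPKM in oeALKBH5 and 429 ± 25.8 FPKM in control cells (SD, n = 3 each). It measured 333, 292 and 314 CPM in oeALKBH5, against 346, 310 and 308 CPM in control libraries, with overlapping groups (log2 fold change -0.04, SE 0.0547, adjusted p = 0.621). HSPB8, which works with BAG3 in selective autophagy, measured 29.1, 23.6 and 21.3 CPM in oeALKBH5, against 24.6, 23.5 and 24.8 CPM in control libraries. HSPB6 had a log2 fold change of 0.24 (SE 0.136, adjusted p = 0.156).

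**Figure D4:**
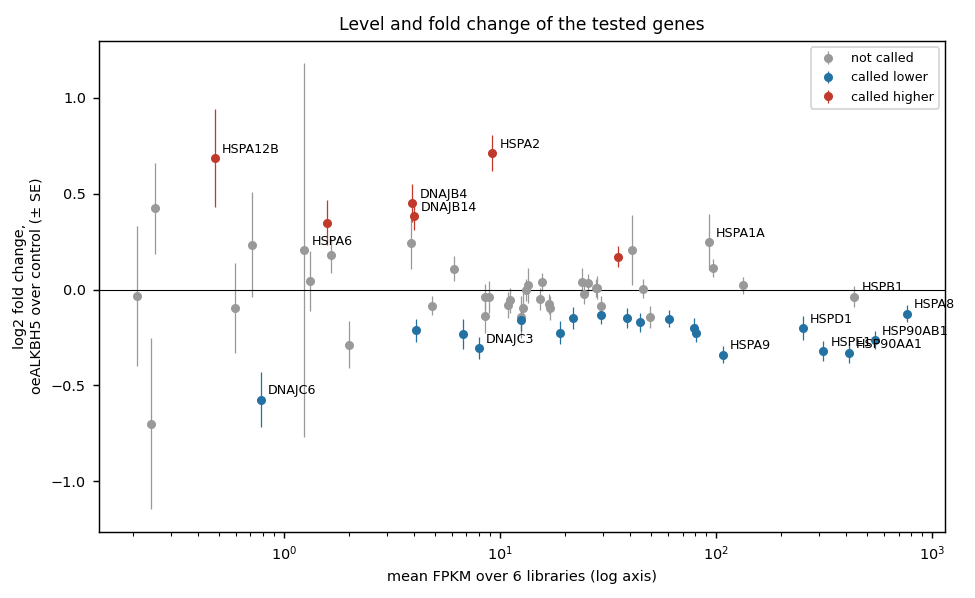
Mean level of each tested member over the 6 libraries (x axis, FPKM, log axis) against its log2 fold change in oeALKBH5 over control cells (y axis). Of the 10 most highly expressed members, HSPA8, HSP90AB1, HSP90AA1, HSPE1, HSPD1 and HSPA9 were called lower and HSPB1, DNAJA1, DNAJB1 and HSPA1A were not called; the members called higher all have low to moderate levels.

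Untested members were scarce. DNAJB13, DNAJB3, DNAJB7, DNAJC12, HSPB2, HSPB3 and HSPB9 had at most 12 counts in any library, where 3 counts are worth about 0.16 CPM, so no difference was detectable at this depth. DNAJC25-GNG10, a readthrough that shares reads with DNAJC25, was given 23, 0 and 22 counts in oeALKBH5 and 0 in each control library; its reads and those of DNAJC25 cannot be told apart with certainty. Without oeALKBH5 replicate 2 it entered the test and was called higher (adjusted p = 1.38e-05), a result that rests on which libraries are kept.

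Calls differed in how well they held. Under all of the 17 alternatives that tested them, 11 members remained called: HSPA2, DNAJB4 and DNAJB14 higher, and HSP90AA1, HSP90AB1, HSPA9, HSPE1, DNAJC1, DNAJC3, DNAJC6 and DNAJC8 lower. No called member changed sign under any of the alternatives. The share of all genes that stayed called throughout was not computed, so the 11 cannot be set against it. Scaling by library size alone ended the calls of DNAJA2, DNAJA3, DNAJB6, DNAJB11, DNAJC11, DNAJC15, DNAJC30, HSPA4, HSPA8, HSPA13 and HSPD1. Of the 11 core heat shock genes, 5 were called lower and none higher, against 22.0% and 20.8% of all genes tested. Of the 5, HSPA8 and HSP90AB1 are constitutive forms. Library size alone gave 3 lower and 1 higher (DNAJB1), and log2(FPKM + 1) gave 3 lower and 2 higher (DNAJB1 and HSPA1A). Over all genes tested, library size alone called 14.4% lower and 30.1% higher. Of 12016 genes, log2(FPKM + 1) called 1971 lower and 3517 higher. DNAJB1, not called in the reported test, was called higher under 9 of the 17 alternatives. HSPA8, called lower in the reported test, was called lower under 8 of them.

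**Figure D5:**
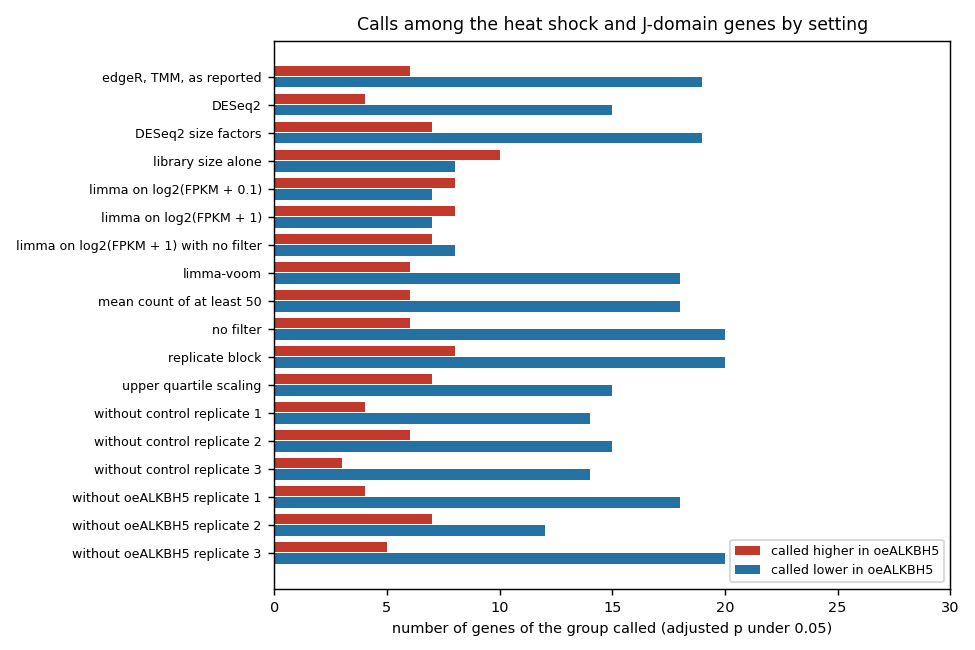
Number of members called higher and lower in oeALKBH5 (x axis) under the reported test and each of the 17 alternatives (down the page). The reported 6 higher and 19 lower become 10 and 8 with scaling by library size alone.

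The proteins that work with these chaperones were described from lists of 79 tested genes outside the rule. The shares to set beside every list below are those over all genes tested. They were 22.0% lower and 20.8% higher, or 14.4% lower and 30.1% higher with library size alone. Of 15 HSP90 co-chaperones, 6 were called lower and 2 higher, with a median log2 fold change of -0.03; library size alone gave 4 and 4, with a median of 0.05. PPID, a cyclophilin that binds HSP90, averaged 73.6 ± 4.41 CPM in oeALKBH5 and 96.1 ± 1.79 CPM in control cells (SD, n = 3 each), and fell by 0.38 on the log2 scale (SE 0.0524, adjusted p = 8.5e-06). TOMM70, the mitochondrial receptor that accepts clients from HSP90 and HSP70, fell by 0.30 on the log2 scale (adjusted p = 6.56e-05). FKBP4, an immunophilin of steroid receptor complexes, went the other way, at 160 ± 4.42 CPM in oeALKBH5 and 130 ± 3.17 CPM in control cells (log2 fold change 0.30, SE 0.0461, adjusted p = 3.68e-05). Its relative FKBP5 had a log2 fold change of 0.22 (SE 0.075, adjusted p = 0.0243), which was 0.121 without control replicate 1, 0.115 without control replicate 3, 0.0584 without oeALKBH5 replicate 2 and 0.0705 without oeALKBH5 replicate 3.

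Of 12 HSP70 exchange and partner factors, 5 were called lower and none higher, with a median of -0.09, or 4 lower and 1 higher with library size alone. ST13, which stabilises client-bound HSP70, averaged 361 ± 4.36 CPM in oeALKBH5 and 425 ± 4.70 CPM in control cells (log2 fold change -0.23, SE 0.0425, adjusted p = 0.000183). HSPBP1, an exchange factor, averaged 64.9 ± 7.58 CPM in oeALKBH5 and 82.2 ± 3.24 CPM in control cells (log2 fold change -0.34, SE 0.0686, adjusted p = 0.00079). BAG3, an HSF1 target and HSP70 partner, measured 67.2, 61.4 and 58.2 CPM in oeALKBH5, against 60.7, 60.9 and 58.1 CPM in control libraries, and was not called.

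The cytosolic chaperonin TRiC and its feeder prefoldin gave 10 genes called lower and none higher of 16, with a median of -0.22, and 9 lower with library size alone. Of 9 TRiC subunit genes, 7 were called lower, among them CCT5 at 273 ± 15.0 CPM in oeALKBH5 and 332 ± 3.54 CPM in control cells (SD, n = 3 each; log2 fold change -0.29, SE 0.0472, adjusted p = 6.77e-05). PDCL3, a TRiC cofactor, had the largest fall of this list, at 18.3 ± 1.19 CPM in oeALKBH5 and 25.3 ± 0.352 CPM in control cells (log2 fold change -0.47, SE 0.0721, adjusted p = 3.28e-05).

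Of 12 ER chaperone genes outside the rule, 9 were called lower and 1 higher (median -0.19), or 4 and 1 with library size alone. MANF, a stress-induced ER protein, fell by 0.32 (adjusted p = 5.49e-05) and PDIA3, a disulfide isomerase, by 0.24 on the log2 scale (adjusted p = 0.000377). HSPA5, the ER HSP70 served by DNAJB11 and DNAJC3, had a log2 fold change of -0.19 (adjusted p = 0.00362). CALR, a lectin chaperone, was called higher with a log2 fold change of 0.13 (adjusted p = 0.0192), 0.0975 without control replicate 2 and 0.0733 without control replicate 3. Of 13 other mitochondrial proteostasis genes, 5 were called lower and 1 higher (median -0.15), or 1 and 1 with library size alone. The inner membrane protease subunit AFG3L2 fell by 0.26 (SE 0.049, adjusted p = 0.000285), while its partner SPG7 averaged 109 ± 1.75 CPM in oeALKBH5 and 89.8 ± 3.69 CPM in control cells (log2 fold change 0.28, SE 0.0486, adjusted p = 0.000106). The import motor subunit PAM16 had a log2 fold change of -0.26 (adjusted p = 0.00955), 0.0545 without control replicate 2.

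Other genes linked to heat shock factors moved both ways, 2 higher and 3 lower of 9 tested, or 4 and 3 with library size alone. HSBP1, a small protein that binds HSF1 and dampens it, averaged 112 ± 10.97 CPM in oeALKBH5 and 163 ± 4.09 CPM in control cells (SD, n = 3 each), and fell by 0.54 on the log2 scale (SE 0.0586, adjusted p = 9.86e-07). ZFAND2A, a stress-inducible proteasome factor, averaged 53.6 ± 2.25 CPM in oeALKBH5 and 71.3 ± 1.71 CPM in control cells (log2 fold change -0.41, SE 0.0529, adjusted p = 3.93e-06). HSF4, a factor known from the lens, averaged 10.5 ± 1.94 CPM in oeALKBH5 and 6.58 ± 0.561 CPM in control cells (log2 fold change 0.67, SE 0.128, adjusted p = 0.00035). SERPINH1, the collagen chaperone HSP47, had a log2 fold change of 0.14 (adjusted p = 0.0237), 0.117 without control replicate 2 and 0.0927 without control replicate 3.

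At the transcript level the deposited estimates were far less precise. Of 194 member transcripts, 128 were tested over a table of 45502, in which 0.281% were called higher and 0.732% lower, 1.01% in all. Only the HSPA9 transcript NM_004134.7 was called, lower with a log2 fold change of -0.33 (SE 0.0388, adjusted p = 0.0340, edgeR), and none was called higher. At an unadjusted p under 0.05 in the same edgeR test there were 23 of the 128 member transcripts, 7 of them higher. The same share over all transcripts was not computed, so this count shows nothing particular to the members. Of 100 tested member transcripts from 33 members with at least 2 of them, 15 took shares of their gene's counts that did not overlap between the groups (7 higher and 8 lower), against 13.4% of 41249 such transcripts (7.33% higher and 6.05% lower). Values of 2 members are given, chosen after they were seen. In DNAJB2, the transcript NM_006736.6 took 28.8%, 29.003% and 26.2% of the gene's counts in oeALKBH5, against 18.5%, 16.01% and 15.2% in control libraries. The groups do not overlap, while the gene's total differed by -0.02 on the log2 scale and the transcript's own rise of 0.74 (SE 0.154, adjusted p = 0.115) did not pass. In DNAJC2, the transcript XM_011516030.2 took 17.0%, 12.7% and 13.6% in oeALKBH5, against 8.004%, 9.88% and 7.82% in control libraries, and was not called either (adjusted p = 0.376). A further DNAJC2 transcript, XM_017011968.2, was given 4.71%, 4.85% and 2.79% in oeALKBH5 and 0 in each control library (adjusted p = 0.0958); other DNAJC2 transcripts were at 0 in some libraries of both groups.

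The length of the genes was set beside the calls, without a test. The median length of the principal transcript (GENCODE release 29) was 4127 bases for the 6 members called higher, 2763 for the 19 called lower and 2652 for those not called. Over all genes tested it was 3948.5 bases for genes called higher and 2424 for those called lower. Across the 63 members the rank correlation of length with log2 fold change was 0.126, and across 13969 genes with a length it was 0.223; points share the same 6 libraries, and the part of length in the calls was not tested.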

How the data were processed

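mRNA of 6 Huh-7 libraries was sequenced. The authors deposited estimated counts and FPKM (scaled for length and depth) per RefSeq transcript. The tools named, per the submitters' processing notes, were RSEM 1.2.8, Bowtie2 2.2.5 and HISAT2 2.1.0, with build GRCh38.p13; no role or strand setting is stated for them in the sources used here. Estimated counts were summed by gene, rounded and tested with edgeR 4.0.16 (R 4.3.3; TMM, minimum count 10 in its expression filter, robust quasi-likelihood fit, group as the single term, two-sided, Benjamini-Hochberg over all genes tested). SE was computed as |log2 fold change| divided by the root of the F statistic. Symbols matched 17881 of 18030 gene identifiers. Groups came from the sample titles. Reads shared by near-identical or overlapping genes are divided by a model, so such genes are uncertain one by one. The tests were also run on simulated counts with a fixed spread and balanced rises and falls, which cannot show how the scaling affects calls. Alternatives used DESeq2 1.42.0, limma 3.58.1, other scalings and filters, log2(FPKM + 1) and log2(FPKM + 0.1) for genes with at least 1 FPKM in 3 libraries, and each library left out.

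Members and lists were chosen with earlier results of these data known. The text names ALKBH5, both heat shock factors, up to 12 called members in each direction by size of change, the 10 members with the highest FPKM, the heat-inducible core, up to 2 genes in each direction by p in each partner list, and called transcripts; other genes named (members of a family or compartment, HSPA5, BAG3 and DNAJB2's transcript) were added after their values were seen. Promoter letters came from RefSeq on GRCh38.p14, which matched 63 members, some of them untested.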

Additional observations from a re-analysis of the deposited data

How the results depend on the processing

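Against 6 members higher and 19 lower, library size alone gave 10 and 8; the tests of log2(FPKM + 1) and log2(FPKM + 0.1) gave 8 higher and 7 lower, and log2(FPKM + 1) without a filter gave 7 and 8. Leaving out single libraries gave 3 to 7 members higher and 12 to 20 lower, fewest higher without control replicate 3 (3 higher, 14 lower) and fewest lower without oeALKBH5 replicate 2 (7 higher, 12 lower). DESeq2 gave 4 and 15. The 1 transcript called lower became 0 with library size alone, 0 with the replicate block, 0 without any single library and 2 with a mean count of at least 50. The cause was not tested. Over all genes, library size alone called 4266 higher and 2047 lower, against 2948 and 3114. The filtered FPKM tests covered 56 members and 12016 genes. They called 3517 genes higher and 1971 lower on log2(FPKM + 1), and 3508 and 1962 on log2(FPKM + 0.1). Without a filter, log2(FPKM + 1) called 3421 and 1769 of 17996 genes. DESeq2 called 2360 and 2631 of 14168. Leaving out single libraries called 2313 to 3067 genes higher and 2565 to 3286 lower.

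Of the 63 members tested, 22 changed sign under some alternative, none of them called in the reported test. Those chosen by the naming rule were 6. HSF2 was 0.0005 with library size alone. HSPB1 (-0.0801 to 0.0179 with single libraries left out) was 0.0430 with library size alone, 0.0427 on log2(FPKM + 0.1), 0.0426 on log2(FPKM + 1) with or without a filter, and above 0 without control replicate 1 (0.0179) and at 0.0142 without oeALKBH5 replicate 2. With single libraries left out, DNAJA1 ran from -0.0050 (without oeALKBH5 replicate 3) to 0.0611, HSPA1B from -0.0013 (without oeALKBH5 replicate 1) to 0.3142, HSPA6 from -1.3833 (without oeALKBH5 replicate 1) to 0.7066 and HSPH1 from -0.0296 (without control replicate 1) to 0.0494. HSPA6 was -0.36 on log2(FPKM + 0.1), -0.0438 on log2(FPKM + 1), -0.55 with limma-voom and -0.0711 with the replicate block. HSPH1 was -0.0019 with no filter, -0.0096 without control replicate 3 and -0.0084 without oeALKBH5 replicate 2. Of the other values for named genes, 707 kept direction and side of the threshold, 56 lost the call and 12 gained it.

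Same-numbered libraries' deviations from their group means correlated at -0.019, 0.016 and -0.012 over all genes tested. Such a correlation cannot exclude pairing that touches only part of the genes. With the replicate block, 8 members were higher and 20 lower, and ALKBH5 had an adjusted p of 0.0538. Over all genes the block called 3128 higher and 3341 lower, against 2948 and 3114 without it. Members under a few counts per library could not be compared at this depth.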
